A study of Mus musculus with 8 samples.

Results

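Semaphorins, ephrins, Slits and netrins are secreted or membrane-bound guidance cues, and plexins, neuropilins, Eph receptors, Robo receptors, Unc5b and Dcc receive them. Their transcripts were followed in E18.5 mouse hearts, 4 from WT and 4 from SIRT1 KO embryos, each on an array of its own. A gene was taken as a member if it stood on a fixed list of 49 guidance genes and if a non-control probe of the array carried an accession of that gene. Of the 49, 47 had at least 1 probe, with 77 probes among the 41174 of the array and 47 among 19096 named genes. No probe was matched to *Sema3g* or *Efna3*. Every probe was kept, and the 64 probes of 45 genes that exceeded background clearly on 4 or more of the 8 arrays were tested.

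The SIRT1 KO embryos carried a whole-body germ-line knockout of *Sirt1*, an NAD+-dependent protein deacetylase, and the WT embryos did not. Both were on a C57BL/6 background by the labels, given as C57BL/6J in the study's methods, the mice ate a chow diet, and no treatment was given. The knockout was in the germ line and so in every cell of the embryo, and not in 1 cell type of the heart, and the sex of the embryos is not in the labels. Whole hearts were measured, and in such bulk RNA fewer cells of a type and less RNA per cell cannot be told apart.

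Guidance cues steer axons, but the same molecules shape the heart and its vessels. Class 3 semaphorins bind neuropilins, which pass the signal through plexins: *Sema3c* acts with *Nrp1*, *Plxna2* and *Plxnd1* when neural crest cells enter the outflow tract, *Sema3a* patterns the sympathetic nerves of the heart, and *Sema3d* guides the pulmonary veins. *Sema4d* is a membrane-bound semaphorin whose main receptor is *Plxnb1*, and *Sema6d* signals through *Plxna1* in the growing ventricle. *Efnb2* marks arteries and its receptor *Ephb4* marks veins, *Efna1* and *Epha3* act in the endocardial cushions, Slits bind Robo receptors, and *Ntn1* binds Dcc to attract and Unc5 receptors to repel.

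An array had 59.5% to 64.9% of its probes well above background and no saturated spots among the non-control spots. Each array was scaled to the 75th percentile of its signal, which was 939 to 1033 intensity units on the WT arrays and 777 to 906 on the SIRT1 KO arrays. The 4 WT arrays shared 1 slide and scan and the 4 SIRT1 KO arrays shared the other, so slide, scan and genotype cannot be told apart. Genotypes are those of the labels: of the 2 probes of *Sirt1* the brighter was higher in the hearts labelled SIRT1 KO (log2 fold change 0.54, limma adjusted p = 0.0323) and the other gave -0.11 (adjusted p = 0.589), and whether either probe lies in the part removed by the knockout was not analysed here. All 8 cardiomyocyte markers were above background on every array. Liver markers set 3 hearts apart: relative to the WT mean, the summed level of *Alb*, *Afp* and *Apoa1* was 7.92 in SIRT1 KO 1, 3.84 in SIRT1 KO 4 and 1.82 in WT 4, and between 0.556 and 1.03 in the other 5 hearts.

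Among the guidance genes, 3 transcripts passed the test and all 3 were higher in the SIRT1 KO hearts: the ligand *Sema4d* (1.53-fold), the ligand *Ntn1* (1.30-fold on 1 of its 2 probes) and the receptor *Plxna1* (1.35-fold on 1 of its 2 probes). Of the 64 probes 3 thus passed as higher, where 3.97% of all tested probes did, and 0 as lower, where 0.91% did. Levels are log2 signal relative to the 75th percentile of the array, fold changes are SIRT1 KO over WT, and a probe was called at a Benjamini-Hochberg adjusted p under 0.05 from limma over all 25616 tested probes.

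Of all tested probes, 4.88% were called in either direction, and of the guidance probes 3 of 64. By the methods' analysis of variance 2 of 64 were higher and 0 lower, where 1.70% and 0.433% of all tested probes were. At an unadjusted p under 0.05 that test gave 4 of 64 guidance probes and 20.1% of all. With limma the share at an unadjusted p under 0.05 was 21.5% over all probes and 8 of 64 among the guidance probes, 6 higher and 2 lower. The genotypes did not overlap on 13.7% of all probes and on 3 of the 64. The median log2 fold change was 0.06 over the guidance probes and 0.01 over all tested probes. Fitted above 0 were 40 guidance probes and below it 24, and over all tested probes 13246 and 12370. The guidance split was 33 and 31 with quantile normalization or cyclic loess, and 48 and 16 with normexp background correction. It was 21 and 43 with median scaling, and 13 and 51 with no scaling between arrays. The guidance values ran from -0.72 to 0.65. Of the 64 probes, 24 lay in the lowest part of the array when all tested probes were divided by mean level into 3 equal parts, 25 in the middle part and 15 in the highest. Over the whole array, 8.78%, 4.03% and 1.83% of those parts were called, and among the guidance probes 1, 2 and 0.

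For most guidance genes the arrays set a limit on the size of a difference. The 95% interval of the fold change lay within 1.5-fold either way for 48 of the 64 probes, within 2-fold for 59 and within 1.25-fold for 21. The median SD within a genotype was 0.18 for the guidance probes and 0.15 for all tested probes.

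**Figure D1:**
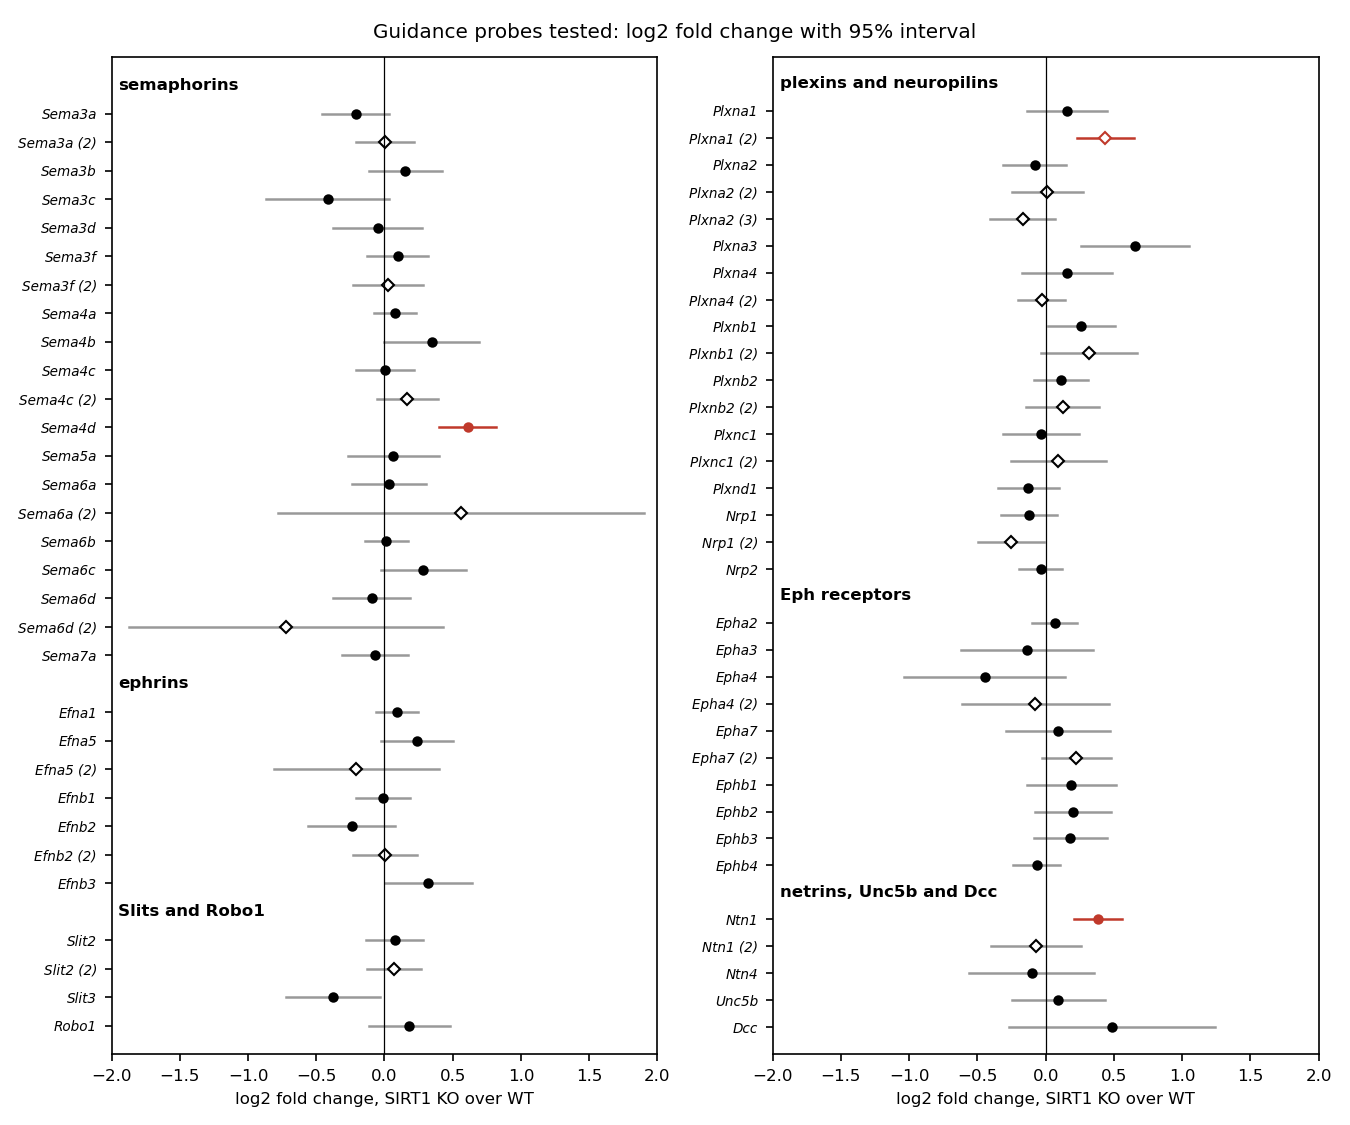
Log2 fold change (SIRT1 KO over WT, x axis) of the 64 tested guidance probes with the 95% interval of the limma fit, ligands on the left and receptors with the netrin family on the right; Robo1 stands with the Slits. Circles are the brightest probe of a gene, diamonds its other probes, and red marks the 3 called probes, all to the right of 0.

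*Sema4d* had the smallest p of the listed members. Its tested probe (A_51_P146320) read -3.25, -2.97, -2.89 and -3.04 in the 4 WT hearts and -2.39, -2.45, -2.36 and -2.52 in the 4 SIRT1 KO hearts. All 4 SIRT1 KO hearts stood above the highest WT heart. On the log2 scale the difference was 0.61 (standard error 0.09, 95% interval 0.40 to 0.82, limma adjusted p = 0.0073). The exact permutation test gave p = 0.0286, the smallest that 4 hearts against 4 allow. The call stood with any 1 heart left out (adjusted p 0.0122 to 0.0269). With the 3 hearts of high liver markers left out, the log2 fold change was 0.63 and the adjusted p = 0.1, the only 1 of 12 other alternatives in which the call was lost. Its second probe (A_52_P515495) was well above background on 0 of the 8 arrays and was not tested.

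The annotated starts of *Sema4d* are shown because it had the smallest p of the members, and because no start of *Ntn1* or *Plxna1* is in the table used. The 3 stretches each run from 250 bases before to 50 bases after a RefSeq start on the minus strand (GRCm38.p6), at chr13:51748761-51749060, chr13:51756634-51756933 and chr13:51739397-51739696 in that order. Capitals mark the GC box, searched as GGGCGG on both strands.
Sema4d start 1: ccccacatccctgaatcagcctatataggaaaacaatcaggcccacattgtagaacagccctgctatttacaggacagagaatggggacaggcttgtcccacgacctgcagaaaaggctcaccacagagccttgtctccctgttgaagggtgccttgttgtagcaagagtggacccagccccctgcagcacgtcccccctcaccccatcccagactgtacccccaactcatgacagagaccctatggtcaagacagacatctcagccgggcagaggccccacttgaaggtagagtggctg
Sema4d start 2: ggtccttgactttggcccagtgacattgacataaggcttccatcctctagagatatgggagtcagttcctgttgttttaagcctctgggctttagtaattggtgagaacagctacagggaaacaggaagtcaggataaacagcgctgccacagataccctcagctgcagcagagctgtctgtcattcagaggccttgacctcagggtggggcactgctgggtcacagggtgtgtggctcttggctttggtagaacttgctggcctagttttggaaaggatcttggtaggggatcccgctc
Sema4d start 3: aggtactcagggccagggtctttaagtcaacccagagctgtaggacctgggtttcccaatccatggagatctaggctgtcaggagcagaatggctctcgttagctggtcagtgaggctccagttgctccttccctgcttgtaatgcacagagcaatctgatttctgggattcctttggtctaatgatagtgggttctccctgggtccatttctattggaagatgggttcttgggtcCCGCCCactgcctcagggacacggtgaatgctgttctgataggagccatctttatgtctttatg
The GC content was 56%, 52% and 51%, against a median of 64% over the 57 promoters of 41 guidance genes in that table and 56.3% over 21263 promoters of protein-coding genes. A GC box stood in 1 of the 3 *Sema4d* stretches, in 42 of the 57 promoters of guidance genes, and in 46.2% of all promoters of protein-coding genes. The E-box CACGTG was found in 4 of the 57 and in 7.83% of all promoters. TGTTTAC, a FOXO element searched because SIRT1 deacetylates FOXO factors, was found in 0 of the 57 and in 3.01% of all promoters, which says only that these letters are not in those windows.

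*Plxnb1*, the main receptor of *Sema4d*, missed the threshold on both its probes. The brighter probe read 0.03, -0.24, 0.15 and -0.04 in the WT hearts and 0.34, 0.20, 0.04 and 0.38 in the SIRT1 KO hearts. SIRT1 KO 3 lay among the WT hearts and the other 3 above them. This gave a log2 fold change of 0.26 (standard error 0.11, limma adjusted p = 0.206) on this probe and 0.31 (adjusted p = 0.279) on the other. *Plxnb2*, a broadly expressed receptor of class 4 semaphorins, gave 0.11 and 0.12 on its 2 probes (adjusted p = 0.492 and 0.582). Of the other class 4 ligands, *Sema4b* had the second smallest p of the semaphorins, with levels of -5.35, -5.28, -4.75 and -4.89 in the WT hearts and -4.53, -4.90, -4.85 and -4.60 in the SIRT1 KO hearts. The genotypes overlapped, and the log2 fold change of 0.35 missed the threshold (adjusted p = 0.233). *Sema4a*, which acts on immune cells, gave 0.07, and *Sema4c* 0.00 and 0.17 on its 2 probes.

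*Ntn1*, the netrin that attracts axons through Dcc, differed on its brighter probe (A_52_P401473). This probe read -0.95, -1.17, -0.99 and -1.01 in the WT hearts and -0.55, -0.73, -0.66 and -0.64 in the SIRT1 KO hearts. The genotypes did not overlap, and the spread within each was small. The fitted log2 difference was 0.38 (standard error 0.08, limma adjusted p = 0.026, exact permutation p = 0.0286). The call was lost with any 1 of WT 2, WT 3, WT 4, SIRT1 KO 1 and SIRT1 KO 2 left out (adjusted p 0.0372 to 0.0754 over the 8 fits, log2 fold change 0.34 to 0.41), and without the 3 hearts of high liver markers (0.34, adjusted p = 0.257). It was also lost with median scaling (adjusted p = 0.0991), with no scaling (adjusted p = 0.226) and with no filter on dim probes (adjusted p = 0.0589), and stood in the other 8 of 12 alternatives.

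The dimmer probe of *Ntn1* (A_51_P147123) did not follow. It read -4.92, -5.25, -5.38 and -5.36 in the WT hearts and -5.24, -5.56, -4.98 and -5.41 in the SIRT1 KO hearts. The genotypes overlapped, with WT 1 the highest heart and SIRT1 KO 2 the lowest, and the log2 fold change was -0.07 (adjusted p = 0.815, and 0.12 with normexp background correction). Both probes name the same RefSeq transcript.

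The other netrin genes missed the threshold. *Unc5b*, the netrin receptor of the vessel wall, read 2.86, 3.03, 2.71 and 2.95 in the WT hearts and 3.24, 3.11, 2.53 and 3.05 in the SIRT1 KO hearts, where SIRT1 KO 3 was the lowest of all 8 hearts and SIRT1 KO 1 the highest. Its log2 fold change was 0.09 (adjusted p = 0.761). *Dcc* was well above background on 3 arrays of each genotype, with levels of -4.52, -5.74, -4.80 and -4.94 in the WT hearts and -3.82, -4.45, -5.32 and -4.46 in the SIRT1 KO hearts. Its log2 fold change of 0.48 had a 95% interval from -0.27 to 1.24 (adjusted p = 0.434). *Ntn4*, a basement membrane netrin, gave -0.10 (adjusted p = 0.81).

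*Plxna1*, the receptor that pairs with neuropilins for class 3 semaphorins and with *Sema6d*, was called on its dimmer probe (A_51_P501922). This probe read -1.99, -2.35, -2.26 and -2.15 in the WT hearts and -1.84, -1.76, -1.65 and -1.76 in the SIRT1 KO hearts. The lowest SIRT1 KO heart stood just above the highest WT heart. The log2 fold change came to 0.44 (standard error 0.09, limma adjusted p = 0.0314, exact permutation p = 0.0286). The call held with WT 1 or SIRT1 KO 3 left out and was lost with any 1 of the other 6 hearts left out (adjusted p 0.0235 to 0.0953, log2 fold change 0.38 to 0.50). Without the 3 hearts of high liver markers it was 0.50 (adjusted p = 0.178). The call stood in 4 of 12 other alternatives. Among the other 8, it was lost by the methods' analysis of variance (adjusted p = 0.068), with no filter on dim probes (limma adjusted p = 0.0678) and with the replicate number as a block (limma adjusted p = 0.0703). It was also lost under every other scaling tried: cyclic loess (0.0554), quantile normalization (0.0583), median scaling (0.0913) and no scaling (0.115, limma adjusted p in each).

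On the brighter *Plxna1* probe (A_52_P480141) the levels were -0.36, -0.30, -0.11 and 0.15 in the WT hearts and 0.01, 0.06, -0.24 and 0.16 in the SIRT1 KO hearts. The genotypes overlapped, and the fitted difference was 0.16 (standard error 0.13, adjusted p = 0.527). The 95% intervals of the probes, 0.23 to 0.64 and -0.14 to 0.45, overlapped each other.

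*Plxna3*, another neuropilin-associated plexin, had the largest fitted rise of the guidance probes and just missed the threshold. It read -1.72, -2.34, -2.26 and -1.96 in the WT hearts and -1.40, -1.19, -1.82 and -1.25 in the SIRT1 KO hearts. SIRT1 KO 3 lay below WT 1, and the other 3 SIRT1 KO hearts lay above all WT hearts. On the log2 scale the difference was 0.65 (standard error 0.17, limma adjusted p = 0.0699, exact permutation p = 0.0571), and without SIRT1 KO 3 it was 0.79 (adjusted p = 0.0271). With any 1 of the other 7 hearts left out it was 0.56 to 0.77 and missed the threshold (limma adjusted p 0.0506 to 0.167). It passed in 2 of 12 other alternatives, with normexp (adjusted p = 0.0124) and with array weights (adjusted p = 0.0233). The second probe of *Plxna3* was well above background on 0 of the 8 arrays.

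**Figure D2:**
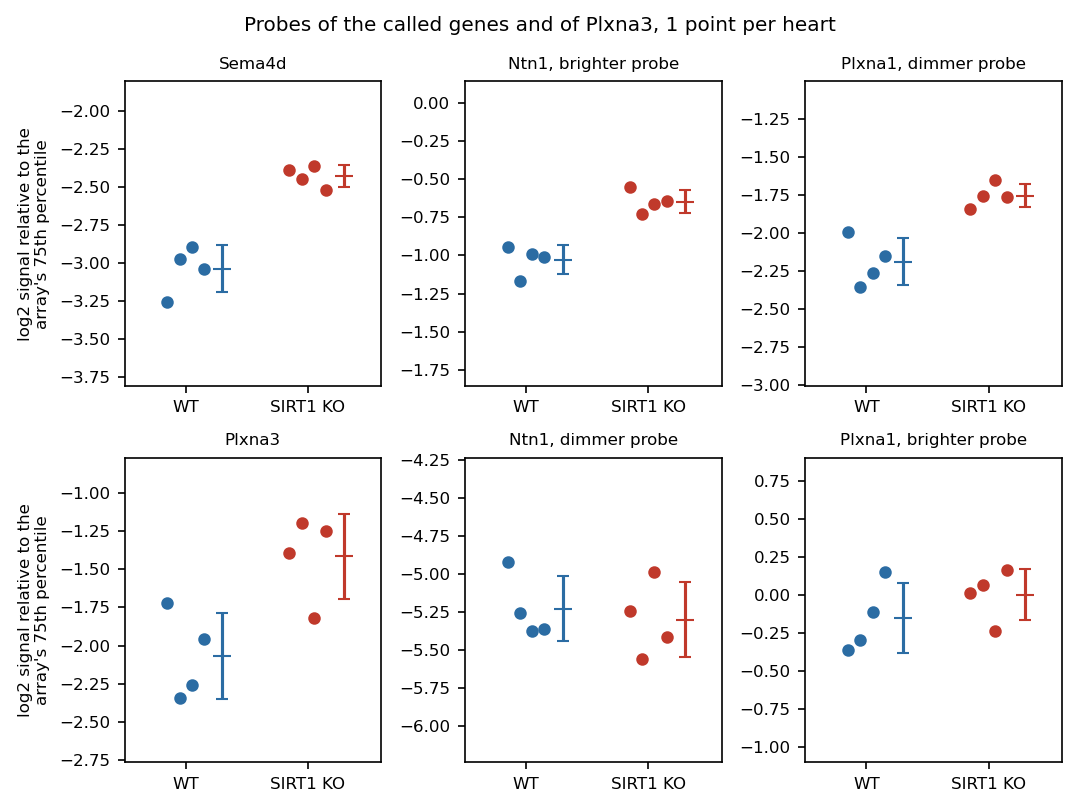
Log2 signal relative to the 75th percentile of the array (y axis, 2 log2 units in every panel) in the 4 WT and 4 SIRT1 KO hearts, 1 point per heart, with the mean and SD beside the points. The genotypes are apart for Sema4d, the brighter Ntn1 probe and the dimmer Plxna1 probe, and they overlap for Plxna3 and for the second probes of Ntn1 and Plxna1.

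The other receptors of semaphorins showed no call. *Nrp1*, the coreceptor of class 3 semaphorins and VEGF, read -0.79, -1.15, -0.89 and -0.91 in the WT hearts and -1.42, -1.16, -1.06 and -1.12 in the SIRT1 KO hearts on its dimmer probe. WT 2 lay among the SIRT1 KO hearts, and the other 3 WT hearts lay above them. This gave a log2 fold change of -0.25 (adjusted p = 0.217) on this probe, which was singled out after its values were seen, and -0.12 (adjusted p = 0.461) on the brighter one. *Nrp2*, the coreceptor found on veins and lymphatics, gave -0.04 with an SD of 0.06 in either genotype (n = 4 each). *Plxnd1*, the endothelial plexin, gave -0.13 (adjusted p = 0.49), and the 3 probes of *Plxna2* gave -0.08, 0.01 and -0.17. *Plxna4* gave 0.16 and -0.03, and *Plxnc1*, the receptor of *Sema7a*, -0.04 and 0.09. All 8 endothelial markers (7 with normexp) were fitted lower in the SIRT1 KO hearts, with a median of -0.10 and 0 called (1 at an unadjusted p under 0.05), and their part in these values was not tested.

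Class 3 semaphorins, the secreted ligands of these receptors, showed no call either. *Sema3c* read -4.19, -3.46, -3.75 and -3.79 in the WT hearts and -4.10, -3.83, -4.24 and -4.67 in the SIRT1 KO hearts. WT 1 lay among the SIRT1 KO hearts, and SIRT1 KO 4 was the lowest. The fitted log2 difference was -0.41 with a 95% interval of -0.86 to 0.03 (adjusted p = 0.268). *Sema3a* gave -0.21 on its brighter probe (adjusted p = 0.299) and 0.00 on the other, *Sema3d* -0.05, *Sema3b* 0.15, and *Sema3f* 0.10 and 0.02. *Sema3e*, the ligand that binds *Plxnd1* directly, was on 3 probes, each well above background on at most 3 of the 8 arrays, and was not tested. The class 5 to 7 semaphorins ran from -0.09 for *Sema6d* to 0.29 for *Sema6c* (adjusted p = 0.267) on their brightest probes. *Sema6d*, the ligand of *Plxna1*, read 2.08, 1.92, 2.01 and 2.02 in the WT hearts and 1.73, 1.81, 1.82 and 2.30 in the SIRT1 KO hearts, where SIRT1 KO 4 was above all WT hearts and the other 3 were below them. The lowest value of all, -0.72, and the widest interval came from second probes of *Sema6d* and *Sema6a*, each well above background on 4 of the 8 arrays.

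Ephrins and Eph receptors gave 0 calls among 17 probes of 13 genes, where 4.88% of all tested probes were called. Their medians were 0.01 and 0.08. *Efnb3*, a transmembrane ephrin, had the smallest p of the ephrins, with levels of 3.02, 2.71, 3.11 and 3.18 in the WT hearts and 3.38, 2.99, 3.40 and 3.54 in the SIRT1 KO hearts. Number 2 was the lowest heart of each genotype, and SIRT1 KO 2 lay among the WT hearts. The log2 fold change came to 0.32 (limma adjusted p = 0.23). *Efna5*, a GPI-anchored ephrin, read 2.22, 2.15, 2.21 and 2.36 in the WT hearts and 2.59, 2.49, 2.15 and 2.67 in the SIRT1 KO hearts. SIRT1 KO 3 was level with the lowest WT heart and the other 3 stood above the WT hearts. On the log2 scale the difference was 0.24 (adjusted p = 0.272), it was 0.35 without SIRT1 KO 3 (adjusted p = 0.0477), and the dimmer probe gave -0.21 (adjusted p = 0.695).

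The arterial ligand *Efnb2* read 1.71, 2.26, 1.97 and 2.18 in the WT hearts and 1.68, 1.74, 1.66 and 2.07 in the SIRT1 KO hearts. WT 1 and SIRT1 KO 4 crossed the gap between the genotypes. This gave a log2 fold change of -0.24 (adjusted p = 0.358) on this probe and 0.01 on the dimmer one. Its venous receptor *Ephb4* gave -0.07 (95% interval -0.24 to 0.11). In the cushion pair, *Efna1* gave 0.09 (95% interval -0.07 to 0.25) and *Epha3* -0.14 (95% interval -0.62 to 0.34).

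*Epha4*, the Eph receptor that binds ephrins of both classes, varied widely between hearts of the same genotype. It read 0.05, 0.82, 0.15 and 0.16 in the WT hearts and -0.54, 0.54, -0.55 and -0.05 in the SIRT1 KO hearts on its brighter probe. The second heart of each genotype was the highest of its genotype. The fitted log2 difference was -0.45 (95% interval -1.04 to 0.15, adjusted p = 0.359), and the dimmer probe gave -0.08. *Ephb2* gave 0.20 (adjusted p = 0.378, and -0.02 with no scaling between arrays), with levels of -3.38, -3.36, -3.61 and -3.68 in the WT hearts and -3.15, -3.26, -3.61 and -3.20 in the SIRT1 KO hearts. The remaining brightest Eph receptor probes, those of *Epha2*, *Epha7*, *Ephb1* and *Ephb3*, gave 0.06, 0.09, 0.19 and 0.18.

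In the Slit and Robo family the ligand *Slit3* fell short of the threshold. It read -1.09, -0.40, -0.85 and -0.74 in the WT hearts and -1.15, -0.94, -1.40 and -1.12 in the SIRT1 KO hearts. WT 1 lay among the SIRT1 KO hearts and the other WT hearts above them. The log2 fold change came to -0.38 (standard error 0.15, limma adjusted p = 0.193, exact permutation p = 0.0571), the lowest p among guidance probes with a negative value. *Slit2*, which binds the same receptors, gave 0.07 on both. The receptor *Robo1* read -1.27, -0.74, -1.06 and -0.71 in the WT hearts and -0.83, -0.69, -0.66 and -0.87 in the SIRT1 KO hearts, which overlapped, and its log2 fold change was 0.18 (adjusted p = 0.453, and -0.04 with no scaling between arrays). *Robo2* was above background on at most 1 of the 8 arrays on either probe and was not tested.

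**Figure D3:**
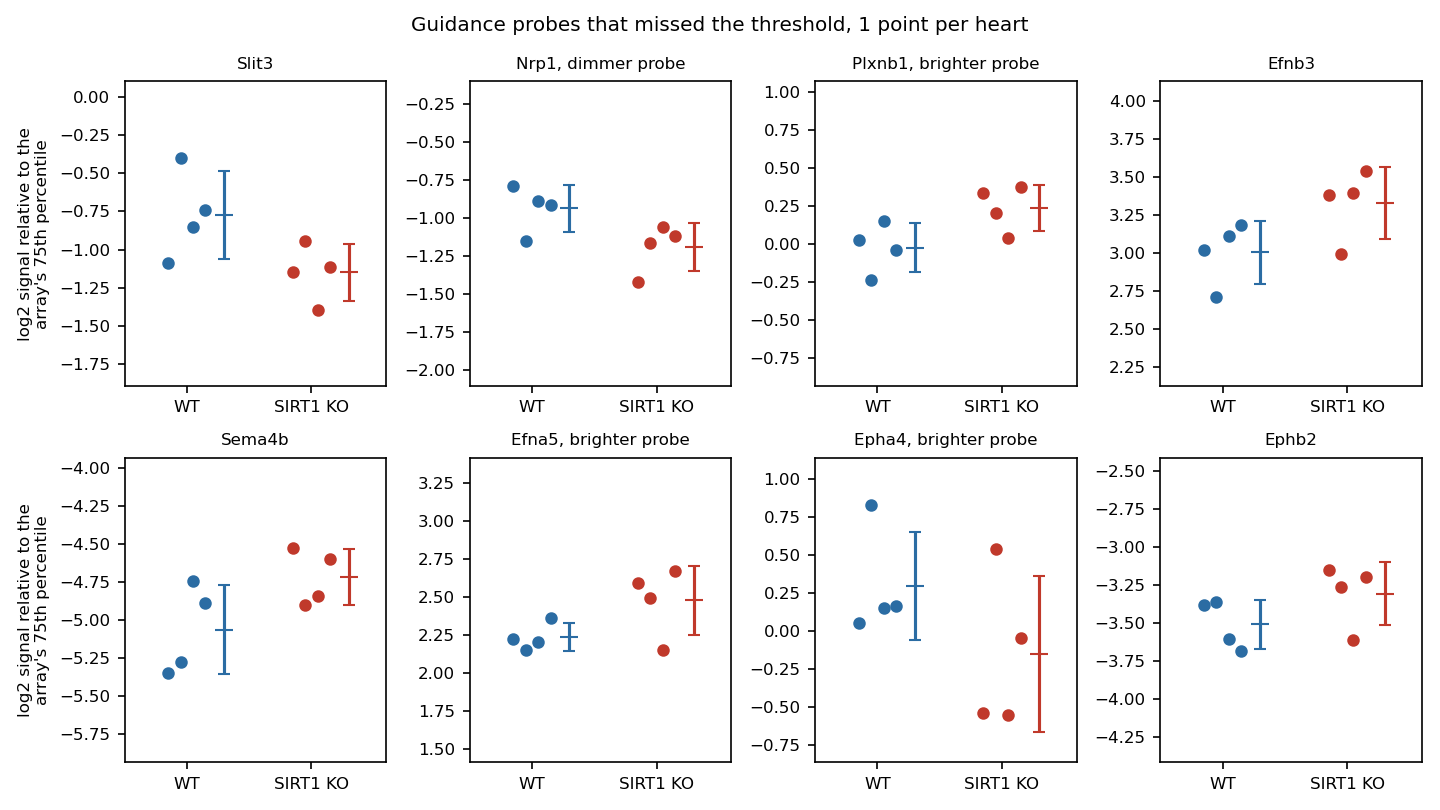
Log2 signal relative to the 75th percentile of the array (y axis, 2 log2 units in every panel) for 8 named guidance probes that missed the threshold, 1 point per heart, with the mean and SD beside the points. The genotypes overlap in every panel, and the second heart of each genotype is the highest for Epha4.

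Over the 45 genes by brightest probe, 28 were fitted higher and 17 lower, with 2 called. Over all tested probes 13246 were fitted higher and 12370 lower, and 4.88% were called. The 24 ligands and 21 receptors gave 2 calls among 33 probes and 1 among 31, beside that share of 4.88%. The median deviation of the guidance probes from the WT mean was -0.08, 0.03, -0.01 and 0.03 in the WT hearts and 0.06, 0.09, -0.08 and 0.08 in the SIRT1 KO hearts. Under the scaling used for the levels, SIRT1 KO 3 was thus at the level of the lowest WT heart, and the other SIRT1 KO hearts were above all WT hearts. Medians of single hearts are given for this scaling only, and not for all tested probes. The median log2 fold change of the guidance probes was -0.068 with median scaling and -0.16 with no scaling between arrays. It was 0.011 with quantile normalization, 0.018 with cyclic loess and 0.089 with normexp. The order of the hearts under those settings was not tested. With SIRT1 KO 3 left out 5 of 64 guidance probes were called, where 7.12% of all probes were. With any 1 of WT 2, WT 3, WT 4, SIRT1 KO 1 and SIRT1 KO 2 left out 1 was called, where 2.56% to 3.29% of all probes were. Without the 3 hearts of high liver markers, which leaves 3 WT and 2 SIRT1 KO hearts, limma called 0 of the 64 guidance probes and 388 of all probes (1.51%). At an unadjusted p under 0.05 this fit gave 5 guidance probes higher and 2 lower, and 9.29% and 4.52% of all probes.

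**Figure D4:**
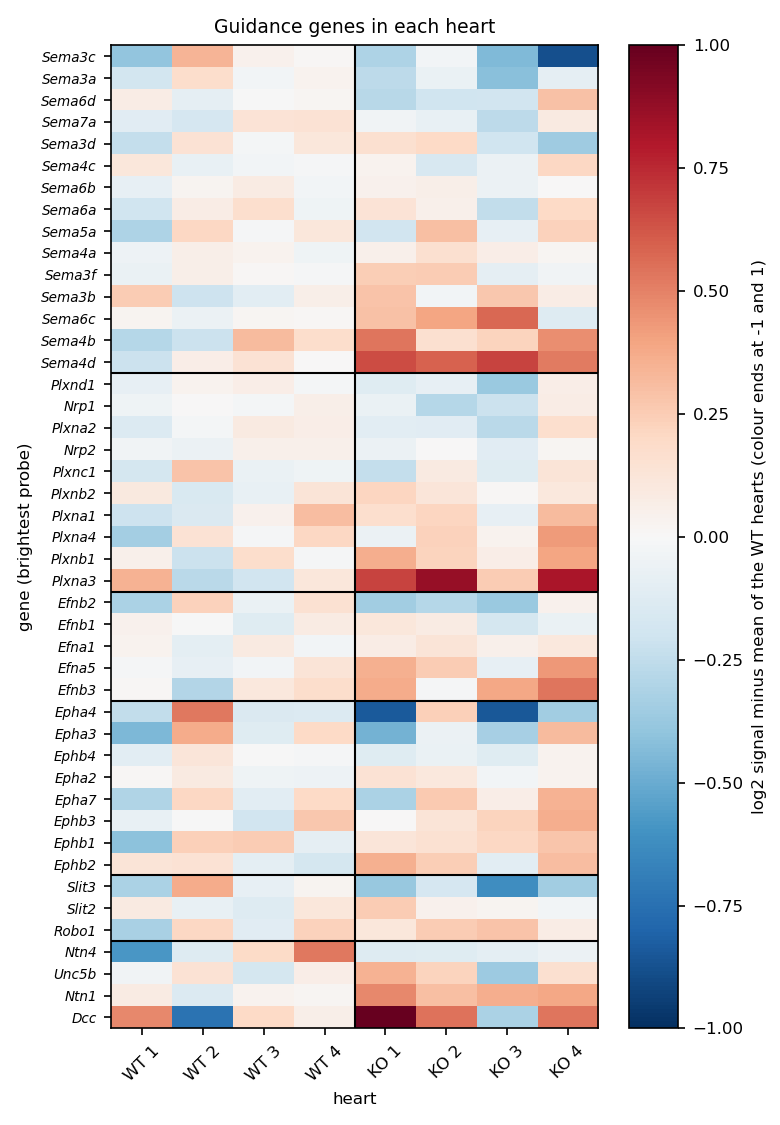
Log2 signal of the 45 tested guidance genes (rows, brightest probe, grouped by family) in the 8 hearts (columns), minus the mean of the WT hearts, from blue (lower) to red (higher). The Sema4d row is red in all 4 KO hearts, as are those of Ntn1, Plxna3 and, more palely, some others. The Slit3 row and a few more are blue in all 4. Most rows mix both colours within each genotype, and KO 3 is the palest or bluest KO heart for Plxna3, Efna5 and Plxnb1.

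Of 18 genes with more than 1 tested probe, the probes had the same sign in 11 and opposite signs in 7 (*Sema3a*, *Plxna2*, *Plxna4*, *Plxnc1*, *Efna5*, *Efnb2* and *Ntn1*). In 10 genes the probes differed by less than 0.2 log2 units. Neither *Ntn1* nor *Plxna1* was among those 10.

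Of 17 tested guidance ligands and receptors that were not members, 2 were called higher and 0 lower on their brightest probe, where 3.97% and 0.91% of all tested probes were. Of the 17, 7 had an unadjusted p under 0.05 (21.5% of all probes) and 3 had genotypes that did not overlap (13.7% of all probes). Fitted above 0 were 13 of the 17, with a median of 0.13, and 13246 of all 25616 tested probes, with a median of 0.01. *Sema5b*, a transmembrane semaphorin, read -3.15, -3.38, -3.28 and -3.27 in the WT hearts and -2.66, -2.60, -2.45 and -2.64 in the SIRT1 KO hearts on its brightest probe. The genotypes did not overlap (log2 fold change 0.68, adjusted p = 0.00309), while its other 2 tested probes gave 0.15 and -0.05 (adjusted p = 0.581 and 0.878). *Draxin*, a secreted cue that binds Dcc and netrin, gave 0.39 (adjusted p = 0.0345), with levels of -2.05, -2.17, -2.24 and -1.94 in the WT hearts and -1.73, -1.69, -1.61 and -1.78 in the SIRT1 KO hearts, which did not overlap. Short of the threshold were *Plxnb3*, a plexin of the B class (0.38, adjusted p = 0.0573), and *Efna2*, a GPI-anchored ephrin (-0.66, adjusted p = 0.0783), both singled out after their values were seen. Of 33 tested genes that carry guidance signals inside the cell, such as *Dpysl2*, *Mical2*, *Farp1* and *Rhoa*, 0 were called on their brightest probe, with 5 at an unadjusted p under 0.05 and a median of 0.03. Of these *Dpysl4*, of the CRMP family, was singled out after its values were seen: it read -3.37, -2.49, -2.78 and -2.69 in the WT hearts and -2.10, -1.45, -2.28 and -1.90 in the SIRT1 KO hearts, which did not overlap, and its log2 fold change of 0.90 missed the threshold (adjusted p = 0.0529). A dimmer probe of *Dpysl2*, the semaphorin effector CRMP2, was called at 0.33 (adjusted p = 0.0429), while its brightest gave -0.02.

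Some markers of other cell types moved with genotype. Among the Schwann cell and neural crest markers 2 were called higher: *Sox10* (0.80, adjusted p = 0.02) and *Foxd3* (0.60, adjusted p = 0.023). *Sox10* was also called under the other 5 scalings and background corrections, at 0.36 to 0.67, and *Foxd3* only with normexp (0.32) among these 5, with adjusted p of 0.0511 to 0.116 in the other 4. *S100b* gave 0.03 (adjusted p = 0.888), while *Erbb3* was well above background on 0 of the 8 arrays. None of the 3 tested autonomic neuron markers was called, and *Th*, *Dbh*, *Prph* and *Chrna3* were not well above background. Among 6 macrophage, 6 smooth muscle and 8 fibroblast or epicardial markers 0 were called. Of 6 erythroid markers 5 were tested, *Hbb-y* was called higher (0.92, adjusted p = 0.00783), and the summed level was 0.938 to 1.11 in the WT hearts and 0.743 to 0.920 in the SIRT1 KO hearts. The single tested thymus marker, *Dntt*, gave 0.80 (adjusted p = 0.114), and no lung epithelium marker was tested. The part of these cells in the values of *Sema4d*, *Ntn1* and *Plxna1* was not tested.

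Median scaling and no scaling moved every probe by 1 amount each, while quantile normalization and cyclic loess moved probes by unequal amounts. The median log2 fold change of all tested probes was 0.01 under the 75th percentile, -0.02 after quantile normalization, -0.01 after cyclic loess, -0.12 where medians were aligned, and -0.21 unscaled. The share of calls that were higher was 81.4%, 63.9%, 70.5%, 35.5% and 10.0% in that order. The guidance median lay 0.06 above that of all probes under the 75th percentile, median scaling and no scaling, and 0.03 above it with quantile normalization and cyclic loess. *Sema4d* stayed positive under all of these (0.39 to 0.61), as did *Ntn1* on its brighter probe (0.16 to 0.38), *Plxna1* on its dimmer probe (0.22 to 0.44) and *Plxna3* (0.44 to 0.65), and *Slit3* stayed negative (-0.60 to -0.38). Of the 3 calls only that of *Sema4d* passed under all of these scalings.

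**Figure D5:**
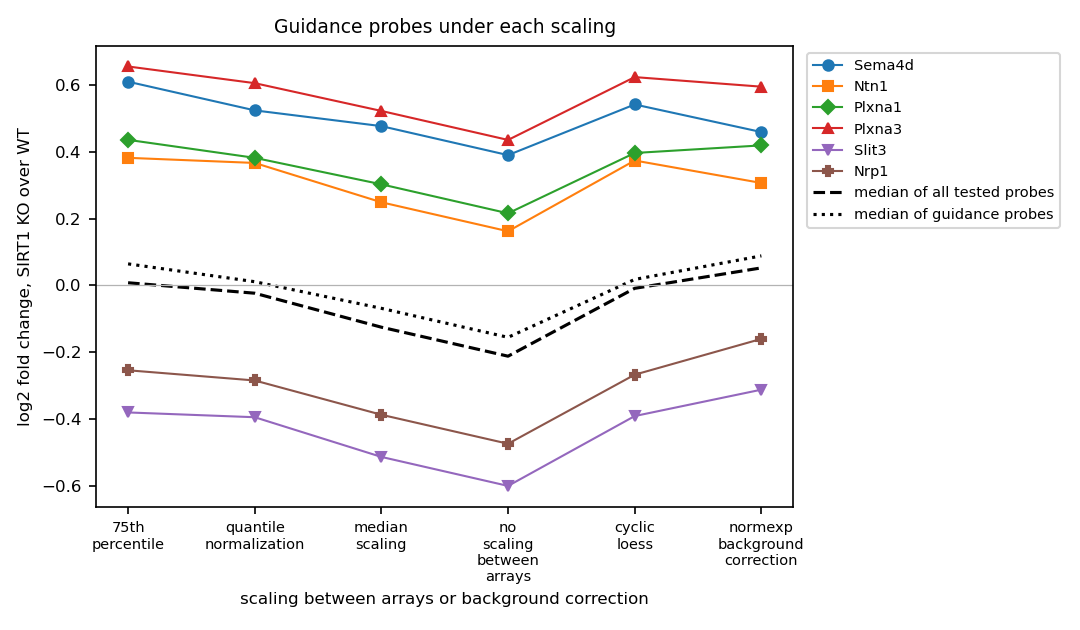
Log2 fold change (y axis, SIRT1 KO over WT) of 6 guidance probes (for Ntn1 the brighter, for Plxna1 and Nrp1 the dimmer) under 6 ways of scaling or background correction (x axis, unordered, with lines joining a probe's values), with the medians of all tested probes (dashed) and of the guidance probes (dotted). The 4 positive and 2 negative probes keep their signs while both medians move below 0 with median scaling and with none.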

How the data were processed

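RNA from each of 8 hearts was labelled with Cy3 and read on Agilent mouse arrays. The authors deposited the processed intensity of every spot as written by Agilent Feature Extraction with its one-color defaults (background-subtracted, not scaled between arrays), and the file headers name version 12.0.0.7. The deposited value table held the same processed signal in 100% of spots and the same intensity unit. The authors compared the genotypes in Partek by analysis of variance, adjusted by Benjamini-Hochberg.

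Here log2 processed signal was taken, the 75th percentile of each array over non-control spots was subtracted, and spots of a probe were averaged without control and outlier spots. Accessions were matched without versions to RefSeq names (GRCm38.p6), which named 28223 of 41174 probes (68.5%). The grid of the files uses another build, so no coordinates were taken for probes, and promoters came from RefSeq. Probes flagged well above background on 4 or more of 8 arrays were tested with limma 3.58.1 (R 4.3.3, lmFit and eBayes) and Benjamini-Hochberg adjustment at 0.05 over all tested probes, beside the exact two-sided permutation test. The pipeline was tested on simulated data. Precision is limited by the 4 arrays in each genotype, each of 1 heart.

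The members and gene lists were chosen with earlier results of these data known. Named were the probes past the threshold, those with an unadjusted p under 0.01, the 2 genes with the smallest p on their brightest probe (highest mean over 8 arrays) in each family, and second probes of opposite sign beside a call. Outside that rule, *Nrp1*, *Sema3c*, *Sema6d*, *Efnb2*, *Unc5b*, the brighter *Plxna1* probe and, of the genes that were not members, *Plxnb3*, *Efna2*, *Dpysl4* and the dimmer *Dpysl2* probe were singled out after their values were seen. The remaining members are given mostly by their fold change. Alternatives covered scaling, background correction (normexp, offset 50, on the median signal), the filter, the methods' analysis of variance, a replicate block, array weights, the brightest probe only and each heart left out. The fit on the 5 hearts with the lowest liver markers was added after seeing the data. Some markers of the Schwann cell and autonomic neuron lists are not reported here.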

Additional observations from a re-analysis of the deposited data

Results flagged for a closer look

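In 30 groups of 4 hearts, a gap between the highest or lowest heart and the others was compared with the whole range of the group for the 15 named probes. In 1 group the ratio passed Dixon's critical value. On the brighter *Epha4* probe (A_52_P288177), WT 2 read 0.82 while the other WT hearts read 0.05 to 0.16, a ratio of 0.86. Chance passes that value in about 1 in 20 groups.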

How the results depend on the processing

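Of the 64 guidance probes 3 were higher and 0 lower in the SIRT1 KO hearts. With median scaling 1 was higher and 0 lower, and with no scaling 1 was higher (*Sema4d*) and 4 lower (*Slit3*, both probes of *Nrp1* and 1 of *Sema3a*). Their median moved from 0.06 to -0.068 and -0.16, as the median of all tested probes moved to -0.12 and -0.21. On the 5 hearts with the lowest liver markers 0 were higher and 0 lower, with fewer hearts in the fit, and *Sema4d* kept its sign (0.63). With 1 heart left out the number higher ran from 1 to 5 and the number lower was 0 in all 8 fits. Single values changed sign for *Ephb2* (-0.018) and *Robo1* (-0.037) with no scaling, and for the dimmer *Ntn1* probe with normexp (0.12) and with 1 heart left out (-0.18 to 0.032). The cause of these shifts was not tested. Over the whole array 1250 probes were called, against 546 by the methods' analysis of variance, 1904 with median scaling, 6347 with no scaling, 2566 with normexp, 2277 with array weights and 657 to 1825 with 1 heart left out.

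Hearts of the same replicate number were not known to be related. The correlation of their deviations was 0.204, 0.207, 0.0562 and 0.141, so the numbers were not taken as pairs, although each heart correlated best with its own number. With the replicate as a block (replicate block), the call of the dimmer *Plxna1* probe was lost (adjusted p = 0.0703), 2 guidance probes were higher, 0 lower, the median was 0.06 and 1185 probes were called in all. At an unadjusted p under 0.05 the block gave 12 guidance probes and 23.9% of all, against 8 and 21.5% without it. The limma adjusted p fell to 0.0591 for *Efnb3* and 0.0758 for the brighter *Epha4* probe. It rose to 0.0242 for *Sema4d* and 0.0398 for the brighter *Ntn1* probe. The brightest probe of each gene gave 2 higher and 0 lower among 45 genes, the methods' analysis of variance 2 and 0, and quantile normalization 2 and 0. The deposited value table was not run as an alternative because it holds the same signal.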
